A study of Mus musculus with 6 samples.

Results

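NRF2 pathway genes were examined in RAW264.7, a mouse macrophage cell line, as 10 genes found by symbol among the 22614 rows of the expression table: Nfe2l2, Keap1, Sqstm1, Gclc, Gclm, Gsr, Txnrd1, Srxn1, Hmox1 and Nqo1. All 10 were found, each on a single row. Of 6 RNA-seq libraries, 3 came from cells given phosphate buffered saline (PBS) and 3 from cells given CM-PEG-PLGA@DOX/R848 nanoparticles, both for 24 h. The particle dose was equivalent to 2 µg/mL of DOX (doxorubicin, which poisons topoisomerase II and undergoes redox cycling). R848 (resiquimod) is an agonist of Toll-like receptor Tlr7, PLGA and PEG are the carrier polymers, and CM is not spelled out in the labels. Cells treated with DOX, R848 or an empty carrier alone were not analysed here, so the components cannot be told apart. Replicates are numbered 1 to 3 in each group, and nothing says that they were separate cultures. The p-values thus judge a difference against the spread between these libraries, which may be technical.

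Values are taken as FPKM, a unit that is inferred and not stated with the data. FPKM is fragments scaled for transcript length and library size, which allows levels of different genes to be compared. No source used here gives the depth of a library. Libraries of the same group had a correlation of 0.991 to 0.996 over tested genes (log2 scale), and libraries of different groups one of 0.880 to 0.884. Genes listed above 0 numbered 12678 to 12872 in PBS and 15723 to 15989 in nanoparticle libraries. The cell label was checked against 12 macrophage markers, of which 11 had a mean of at least 1 FPKM and Mertk did not. Their summed level was 3970 to 4144 FPKM in PBS and 1939 to 2132 in nanoparticle libraries. Lyz2 (1482 to 1540 against 389 to 406 FPKM) and Cd14 (637 to 687 against 225 to 248 FPKM) fell by the most FPKM. Csf1r followed (291 to 305 against 47.4 to 50.6 FPKM). Cd68 stood at 760 to 827 FPKM in PBS and at 586 to 629 FPKM with nanoparticles, where it was the largest term of the sum. Adgre1, Cd63 and Fcgr1 went the other way and were higher in every nanoparticle library, Adgre1 at 11.2 to 13.4 against 1.61 to 1.96 FPKM. The part of these differences in the results below was not tested. None of 22 markers of epithelial, fibroblast, endothelial, T, B, melanocyte or liver cells exceeded 0.821 FPKM in any library, and 4 of them were at 0 throughout. Their summed level was 0.645 to 0.863 FPKM in PBS and 2.40 to 3.03 in nanoparticle libraries.

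NRF2, encoded by Nfe2l2, is a transcription factor that binds antioxidant response elements as a partner of small MAF proteins. In unstressed cells Keap1, an adaptor of a Cul3 ubiquitin ligase, holds NRF2 and directs its breakdown. Oxidants and electrophiles modify Keap1, the autophagy receptor encoded by Sqstm1 can sequester it, and NRF2 then accumulates as protein. Its known targets make and recycle glutathione (Gclc, Gclm, Gsr), reduce thioredoxin and peroxiredoxins (Txnrd1, Srxn1), degrade heme (Hmox1) and detoxify quinones (Nqo1). Much of this control acts on protein, which RNA levels do not measure.

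The 10 genes did not move as a unit. With nanoparticles Sqstm1, Srxn1, Hmox1 and Gclc rose, while Gsr, Keap1 and Nfe2l2 fell. Sqstm1 rose 5.70-fold and Gsr fell 2.89-fold as ratios of mean FPKM, the extremes in each direction among the members tested. Gclm and Txnrd1 did not pass the test, and Nqo1 lay under the filter of a mean of 1 FPKM and was not tested. The counts are 4 higher and 3 lower at a Benjamini-Hochberg adjusted p under 0.05 (limma on log2(FPKM + 1), 3 libraries against 3). Over all 10229 genes tested, 77.2% were called, 42.7% higher and 34.5% lower, so the share of members called is close to that of all genes. The excess of higher over lower calls depended on the scaling, since 55.3% of calls were higher here, 50% under median-ratio scaling and 47.3% under upper quartile scaling. The groups did not overlap for 7 of the 9 members tested, against 78.8% of all tested genes. The median log2 fold change of the 9 was -0.07, and that of all tested genes was 0.08. Upper quartile scaling moved the median of all genes by -0.11, and under it 5 members were called lower, the other two being Gclm and Txnrd1. In bulk RNA, a change in the number of cells of a kind and a change in RNA per cell cannot be told apart.

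**Figure D1:**
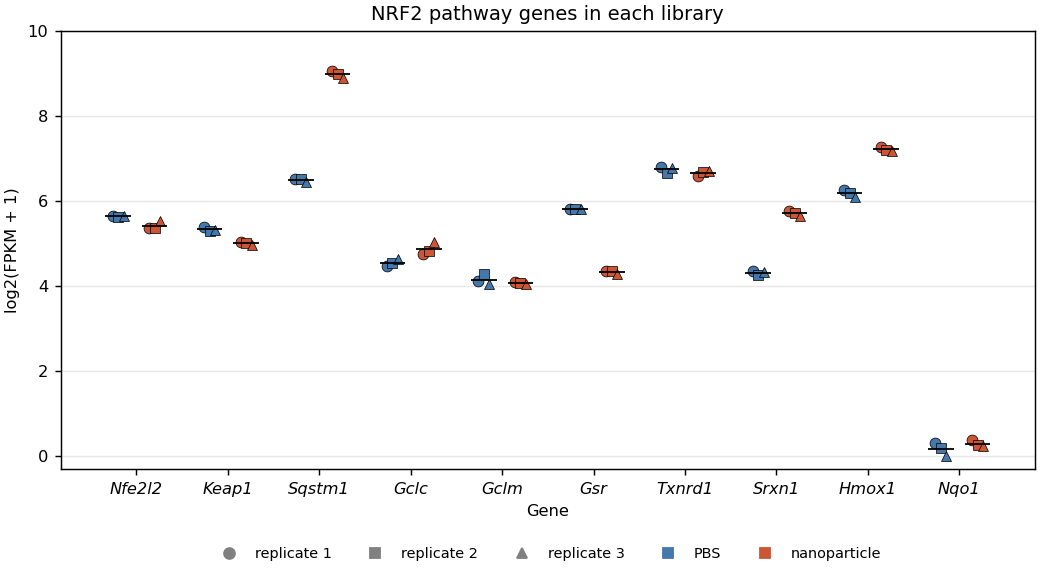
Level of each NRF2 pathway gene in every library, as log2(FPKM + 1), with PBS in blue, nanoparticles in red, 1 symbol per replicate number and a line at the mean of 3 libraries. Sqstm1, Srxn1 and Hmox1 lie higher and Gsr lower with nanoparticles, Gclm and Txnrd1 overlap between groups, and Nqo1 lies near 0 in all 6 libraries.

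Among the genes that control the pathway, Nfe2l2 and Keap1 fell slightly and Sqstm1 rose strongly. Nfe2l2 (ENSMUSG00000015839, chromosome 2, 75675513 to 75704641, GRCm38) stood at 49.2, 48.2 and 49.5 FPKM in PBS and at 40.3, 40.5 and 45.6 FPKM in nanoparticle libraries. The groups did not overlap, and nanoparticle replicate 3 lay nearest to PBS. Its log2 fold change was -0.21 ± 0.06 (SE, limma adjusted p = 0.00948), and -0.33 under upper quartile scaling. Keap1 (ENSMUSG00000003308, chromosome 9, 21229730 to 21239361) stood at 41.2, 38.6 and 39.2 FPKM in PBS and at 32.0, 31.4 and 30.4 FPKM with nanoparticles. Every nanoparticle library was below every PBS library, and limma gave a log2 fold change of -0.33 ± 0.05 (SE, adjusted p = 3.05e-04). The ratio of Nfe2l2 to Keap1 within a library was 1.23 ± 0.0354 in PBS and 1.35 ± 0.130 with nanoparticles (SD, n = 3), the groups overlapped, and an exact two-sided permutation test gave p = 0.20, where 0.10 is the smallest possible.

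Sqstm1 (ENSMUSG00000015837, chromosome 11, 50199366 to 50210827) encodes the autophagy receptor that binds Keap1 and is itself an NRF2 target. It stood at 90.3, 91.7 and 86.2 FPKM in PBS and at 537, 511 and 480 FPKM with nanoparticles. The lowest nanoparticle library was far above the highest PBS library, and the log2 fold change was 2.50 ± 0.06 (SE, limma adjusted p = 4.54e-10). That fold change was above those of 98.3% of tested genes. Against Keap1 in the same library, Sqstm1 went from a ratio of 2.25 ± 0.103 to 16.3 ± 0.502 (SD, n = 3; exact permutation p = 0.10, the smallest possible). Sqstm1 supplied 18.5% to 19.7% of the summed FPKM of the 10 genes in PBS and 52.2% to 55.2% with nanoparticles. Without it, the sum of the other 9 was 373 to 391 FPKM in PBS and 436 to 440 FPKM with nanoparticles.

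The DNA-binding partners of NRF2 rose. Maff, a small MAF protein gene, stood at 1.99, 2.73 and 2.56 FPKM in PBS and at 50.5, 48.4 and 46.1 FPKM with nanoparticles, for which limma gave a log2 fold change of 3.85 ± 0.09 (SE, adjusted p = 4.51e-10). Mafk rose from 12.1 ± 0.625 to 44.2 ± 1.40 FPKM and Mafg from 23.2 ± 0.964 to 33.8 ± 0.375 FPKM (SD, n = 3). Maff, the least abundant of these 3 small MAF genes in PBS, was the most abundant with nanoparticles by its mean. Bach1, a repressor that competes with NRF2 for the same elements, rose as well, from 3.01 ± 0.436 to 5.12 ± 0.707 FPKM (log2 fold change 0.61, limma adjusted p = 5.52e-04). Cul3, the scaffold of the Keap1 ubiquitin ligase, had 26.4, 26.5 and 27.9 FPKM in PBS and 21.8, 23.6 and 26.5 FPKM with nanoparticles, and did not pass (limma adjusted p = 0.0662). With a block for the replicate number it passed as lower (adjusted p = 0.0219), as it also did without nanoparticle replicate 3 (adjusted p = 0.00598).

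Beyond the members, the list of NRF2 control and partner genes held 19 genes. Of these, 16 were tested, 9 rose, 3 fell and 4 did not pass. The median log2 fold change of the 16 was 0.54 against 0.08 for all tested genes. This count and those of the lists below stand beside 42.7% of all tested genes called higher and 34.5% lower. Genes of this list taken by the naming rule as lower were Sesn1, a stress-inducible sestrin, and Gsk3b, a kinase that marks NRF2 for breakdown independently of Keap1. Sesn1 fell from 10.2 ± 0.507 to 7.58 ± 0.699 FPKM. Gsk3b fell from 11.9 ± 0.677 to 8.97 ± 1.82 FPKM (limma adjusted p = 0.0172), a call lost without PBS replicate 1 (adjusted p = 0.0593). Nanoparticle replicate 2 was the lowest library at 6.87 FPKM, and without it the log2 fold change went from -0.39 to -0.22 (adjusted p = 0.0368).

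**Figure D2:**
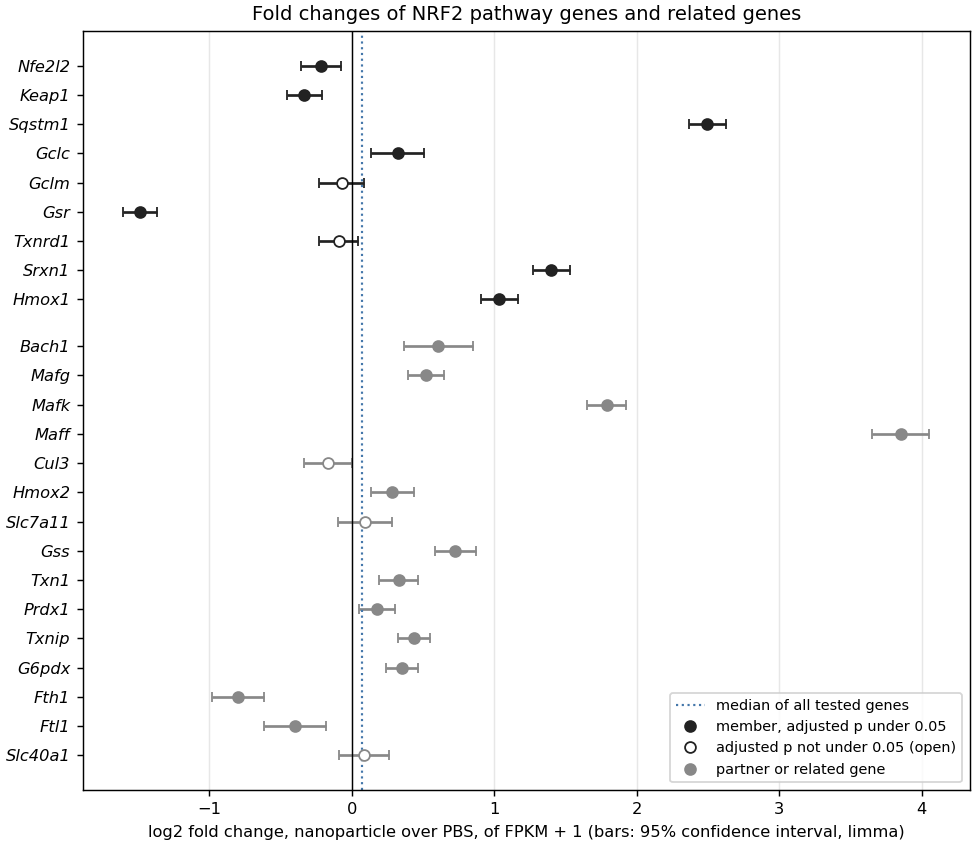
log2 fold change of FPKM + 1, nanoparticle over PBS, with 95% confidence intervals from limma, for the 9 tested members (black) and 15 partner or related genes (grey), where open symbols did not pass an adjusted p of 0.05 and the dotted line is the median of all tested genes. Sqstm1 at 2.50 and Gsr at -1.48 mark the extremes of the members, and Maff at 3.85 lies above the upper one.

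Promoters were compared for the core of the antioxidant response element, spelled TGACNNNGC and sought on both strands, to show which members carry the letters close to their start. RefSeq promoter windows (GRCm38.p6, 250 bases before to 50 after the annotated start) were matched for 7 of the 10 genes, with 9 windows in all because Txnrd1 has 3. Hmox1, Gclc and Gsr had no window and were not searched. A match is a description of letters and not evidence of binding, and the core was present in 12.4% of 32851 windows of the same length. Matches were found in windows of Nfe2l2, Gclm, Txnrd1 and Srxn1, and the 3 that lie before the start are printed 5′ to 3′ on the strand of the gene, with the core or its reverse complement in capitals:
Nfe2l2: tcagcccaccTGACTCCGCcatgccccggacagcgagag
Gclm: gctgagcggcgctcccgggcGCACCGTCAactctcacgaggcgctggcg
Txnrd1: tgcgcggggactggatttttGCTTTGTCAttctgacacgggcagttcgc

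The Nfe2l2 stretch lies at chr2:75704875-75704913 on the minus strand, with the core at -240 to -232 from the start. The Gclm stretch lies at chr3:122245403-122245451 on the plus strand, with the reverse complement at -134 to -126. The Txnrd1 stretch lies at chr10:82859094-82859142 on the plus strand in the second of its windows by position, with the reverse complement at -92 to -84. In Srxn1 the match lies after the start, at 28 to 36. Of these genes Srxn1 rose, Nfe2l2 fell, and Gclm and Txnrd1 did not pass. The letters were not found in the windows of Sqstm1, Keap1 and Nqo1. Bases further from the start were not searched, so a window without the letters does not show that a gene lacks the element.

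Glutathione genes moved in both directions. Gclc (ENSMUSG00000032350, chromosome 9, 77754535 to 77794485) encodes the catalytic subunit of glutamate-cysteine ligase, the first and limiting enzyme of glutathione synthesis. It stood at 21.1, 22.3 and 23.9 FPKM in PBS and at 25.8, 27.6 and 31.7 FPKM with nanoparticles. All nanoparticle libraries lay above all PBS libraries, with replicate 3 the highest in both groups, and the log2 fold change was 0.32 ± 0.08 (SE, limma adjusted p = 0.00491). Under upper quartile scaling it was 0.21 (adjusted p = 0.0464). Gclm (ENSMUSG00000028124, chromosome 3, 122245557 to 122270732), the modifier subunit of the same enzyme, stood at 16.5, 18.4 and 15.6 FPKM in PBS and at 16.1, 16.0 and 15.7 FPKM with nanoparticles. The nanoparticle values lay inside the PBS range, and the log2 difference was -0.07 with a 95% confidence interval of -0.23 to 0.09 (limma adjusted p = 0.376). The ratio of Gclm to Gclc was 0.782, 0.824 and 0.654 in PBS and 0.624, 0.580 and 0.495 with nanoparticles. It was lower in all nanoparticle libraries by a log2 difference of -0.41 (exact permutation p = 0.10, the smallest possible).

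Gsr (ENSMUSG00000031584, chromosome 8, 33652523 to 33698163) encodes glutathione reductase, which regenerates reduced glutathione with NADPH. It stood at 55.7, 55.3 and 55.5 FPKM in PBS and at 19.5, 19.5 and 18.6 FPKM with nanoparticles. The libraries of each group were nearly alike and the groups lay far apart, and limma gave a log2 fold change of -1.48 ± 0.05 (SE, adjusted p = 6.59e-09). Only 2.10% of tested genes had a log2 fold change as low or lower.

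Of 16 further genes of glutathione synthesis, recycling and cystine supply, 14 were tested, 9 rose, 2 fell and 3 did not pass (median log2 fold change 0.53). Gss, which completes glutathione synthesis, rose from 20.7 ± 1.24 to 34.9 ± 1.52 FPKM. Slc7a11, the cystine importer and a well-known NRF2 target, was low in all libraries, at 2.64 ± 0.300 and 2.88 ± 0.0155 FPKM, and did not pass (log2 difference 0.09, 95% confidence interval -0.10 to 0.28, limma adjusted p = 0.332). The naming rule, which asks for a mean of at least 5 FPKM, took Chac2 and Chac1 among those that rose, which encode enzymes that degrade glutathione. Chac2 rose from 7.58 ± 0.296 to 18.3 ± 1.60 FPKM and Chac1 from 2.30 ± 0.211 to 7.77 ± 0.950 FPKM. Chac1 was under 5 FPKM in every PBS library and met the naming rule only through its nanoparticle values. Slc1a5, a glutamine transporter gene, fell from 152.7 ± 2.00 to 109.7 ± 7.39 FPKM, and Glrx3, a glutaredoxin gene, from 114 ± 3.95 to 97.9 ± 2.78 FPKM.

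In the thioredoxin system, Srxn1 rose and Txnrd1 did not pass. Srxn1 (ENSMUSG00000032802, chromosome 2, 152105516 to 152111376) encodes sulfiredoxin, which repairs overoxidized peroxiredoxins. It stood at 19.5, 18.1 and 19.3 FPKM in PBS and at 53.5, 52.2 and 49.7 FPKM with nanoparticles. The groups were well apart, with a 2.73-fold ratio of means and, by limma, a log2 fold change of 1.40 ± 0.06 (SE, adjusted p = 1.93e-08). Txnrd1 (ENSMUSG00000020250, chromosome 10, 82833951 to 82897712), cytosolic thioredoxin reductase, stood at 112, 100.1 and 109 FPKM in PBS and at 95.3, 102 and 103 FPKM with nanoparticles. These ranges overlap, and the log2 difference was -0.09 with a 95% confidence interval of -0.23 to 0.05 (limma adjusted p = 0.195). It passed as lower under median-ratio scaling (log2 fold change -0.17, adjusted p = 0.0273) and under upper quartile scaling (-0.21, adjusted p = 0.0105).

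Among 11 further genes of the thioredoxin and sulfiredoxin system, 10 were tested, 5 rose, 3 fell and 2 did not pass (median log2 fold change 0.13). Txn1, thioredoxin itself, rose from 400.3 ± 19.5 to 504 ± 23.3 FPKM. Txnip, its inhibitor, rose from 184 ± 3.12 to 249.6 ± 7.41 FPKM. Prdx1, a peroxiredoxin that sulfiredoxin repairs, rose from 372 ± 17.5 to 421 ± 14.1 FPKM (log2 fold change 0.18, limma adjusted p = 0.0173), but it no longer passed when PBS replicate 3 was left out (adjusted p = 0.0826), when nanoparticle replicate 2 was left out (0.0797), or under upper quartile and median-ratio scaling (adjusted p of 0.354 and 0.198). Msrb1, which reduces oxidized methionine, rose from 25.4 ± 1.12 to 58.1 ± 5.69 FPKM. The mitochondrial reductase gene Txnrd2 fell from 14.7 ± 0.933 to 8.11 ± 0.615 FPKM, and Txnl1, a thioredoxin-like gene, from 41.5 ± 1.55 to 31.5 ± 2.16 FPKM.

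The reductases above draw on NADPH. Of 11 genes listed under NADPH supply, all tested, 3 rose, 7 fell and 1 did not pass, with a median log2 fold change of -0.25. The list is wider than the enzymes that form NADPH themselves. It also holds Pgls, Taldo1 and Tkt of the pentose phosphate pathway, all lower. G6pdx, which opens the oxidative pentose phosphate pathway, rose from 119 ± 3.15 to 152.7 ± 2.56 FPKM, whereas Pgls, the next enzyme of that pathway, fell from 105 ± 6.20 to 28.2 ± 3.15 FPKM. Idh2, the mitochondrial NADP-dependent isocitrate dehydrogenase, fell from 104 ± 3.68 to 22.0 ± 1.48 FPKM. Nadk, which makes NADP, rose from 114 ± 4.46 to 135 ± 3.59 FPKM (log2 fold change 0.24, limma adjusted p = 0.00194), a call lost under upper quartile scaling (adjusted p = 0.0501).

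Hmox1 (ENSMUSG00000005413, chromosome 8, 75093621 to 75100589) encodes the inducible heme oxygenase, which opens heme to biliverdin, carbon monoxide and iron. It stood at 75.8, 72.0 and 67.4 FPKM in PBS and at 153, 147 and 144 FPKM with nanoparticles. The groups did not overlap, and Hmox1 rose 2.06-fold as a ratio of means (log2 fold change 1.04 ± 0.06 SE, limma adjusted p = 1.55e-07). Hmox2, the constitutive isoenzyme, rose from 51.2 ± 1.46 to 62.7 ± 5.28 FPKM. The ratio of Hmox1 to Hmox2 was 1.49, 1.44 and 1.27 in PBS and 2.25, 2.36 and 2.50 with nanoparticles, higher in every nanoparticle library (exact permutation p = 0.10, the smallest possible).

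Of 12 further heme and iron genes, all tested, 4 rose, 5 fell and 3 did not pass (median log2 fold change -0.09). The ferritin genes, which store iron and are known NRF2 targets, both fell: Fth1 from 5227 ± 57.0 to 3015 ± 282 FPKM and Ftl1 from 5060 ± 175 to 3859 ± 480 FPKM. They were nevertheless by far more abundant than any of the 10 members. Slc40a1, the iron exporter, was at 1.61 ± 0.0623 and 1.77 ± 0.0384 FPKM and did not pass (limma adjusted p = 0.33). Alas1, which starts heme synthesis, rose from 16.0 ± 1.80 to 41.9 ± 8.20 FPKM, and Abcb6, a porphyrin transporter gene, from 9.52 ± 0.462 to 13.3 ± 1.39 FPKM. Tfrc, the transferrin receptor, fell from 118 ± 6.67 to 54.7 ± 5.37 FPKM.

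Nqo1 (ENSMUSG00000003849, chromosome 8, 107388225 to 107403206), the quinone reductase often used as a readout of NRF2, was barely detected. It was listed at 0.233, 0.136 and 0 FPKM in PBS and at 0.294, 0.195 and 0.187 FPKM with nanoparticles. The groups overlapped and no fold is drawn from such values. With no filter on low values the log2 difference on the FPKM + 1 scale was 0.13 (limma adjusted p = 0.206). Of 41 further genes of quinone, carbonyl and conjugating detoxification, 13 were under the filter and 28 were tested, of which 16 rose, 8 fell and 4 did not pass (median log2 fold change 0.33). The 16 include Gstt1, which was under 1 FPKM in every PBS library and met the filter only through its nanoparticle values. Akr1b1, an aldose reductase gene, rose from 228 ± 6.41 to 1205 ± 71.0 FPKM. Gstt3, a glutathione transferase gene, rose from 5.87 ± 0.520 to 29.0 ± 1.46 FPKM. Mgst3, a microsomal glutathione transferase gene, fell from 34.7 ± 1.63 to 10.2 ± 1.93 FPKM, and Aldh9a1, an aldehyde dehydrogenase gene, from 79.3 ± 2.39 to 51.9 ± 0.865 FPKM.

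**Figure D3:**
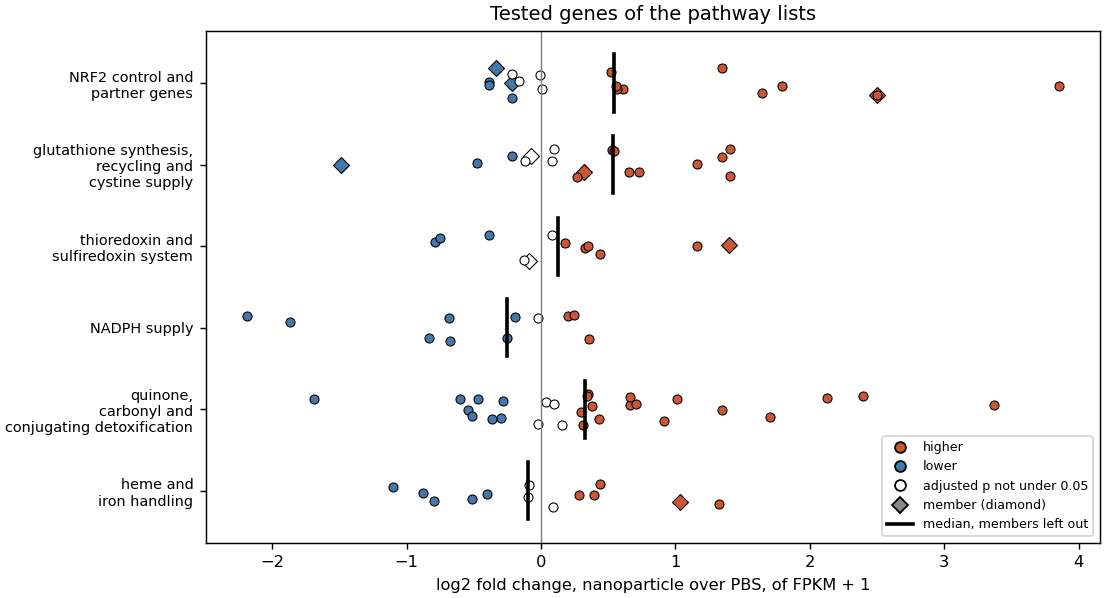
log2 fold change of FPKM + 1, nanoparticle over PBS, for each tested gene of the 6 pathway lists, red where higher, blue where lower and open where the adjusted p was not under 0.05, with members as diamonds and a bar at the median of the other genes. The medians run from -0.25 for NADPH supply to 0.54 for control and partner genes, and each list holds genes on both sides of 0.

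Counted once each, the lists held 110 genes beyond the members. Of these, 91 were tested, 46 rose, 28 fell and 17 did not pass, with a median log2 fold change of 0.18. The 46 include Gstt1, which met the filter only through its nanoparticle values. Over all tested genes 42.7% were called higher and 34.5% lower. The share of the 91 that was called is thus close to the 77.2% of all tested genes. Under upper quartile scaling 42 of the list genes were called higher and 33 lower. Overlap with other genes limits some values, since no source used here says whether counting used strand. Among the members, only Sqstm1 overlaps a gene of the table with a mean above 1 FPKM, namely 750 bases shared with the opposite-strand gene Mrnip at 4.72 FPKM. Keap1, Gclm and Txnrd1 overlap opposite-strand gene models of GENCODE M21 for which no value was used here. Among the other genes named, Hmox2 and G6pdx overlap opposite-strand genes with means of 13.2 (Cdip1) and 13.8 FPKM (Ikbkg), Gss overlaps Acss2 at 7.09 FPKM, and Mafg shares 124 bases with Sirt7 on the same strand. Gstt3 overlaps the same-strand model Gm20441, and glutathione transferase genes include close paralogs, so their single values are uncertain, as is that of Txnrd2.

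**Figure D4:**
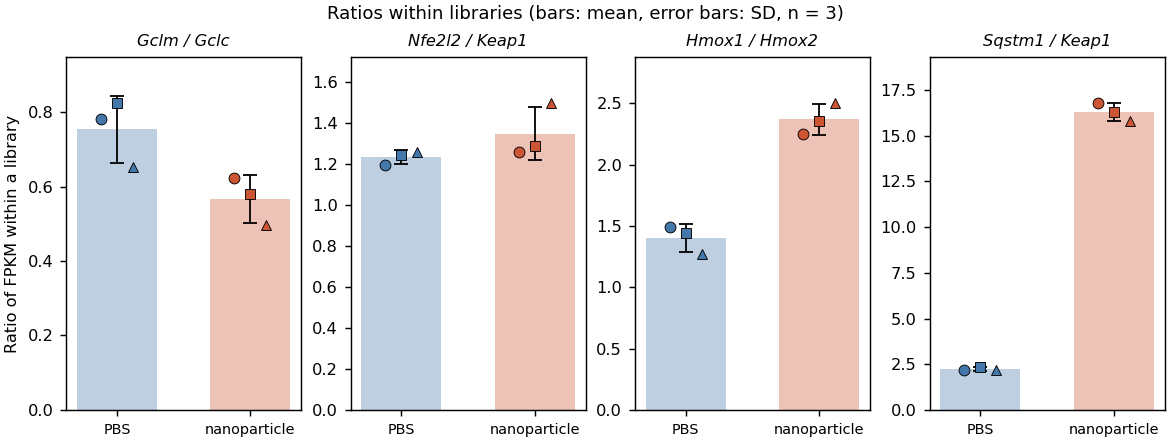
Ratio of FPKM between 2 genes of the same library, with bars at the mean of 3 libraries, error bars of 1 SD and 1 symbol per replicate. The groups are apart for Gclm to Gclc, Hmox1 to Hmox2 and Sqstm1 to Keap1, and overlap for Nfe2l2 to Keap1.

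By mean level in PBS the order was Txnrd1, Sqstm1, Hmox1, Gsr, Nfe2l2, Keap1, Gclc, Srxn1, Gclm and Nqo1. Neighbours in that order did not overlap in range except Srxn1 and Gclm. With nanoparticles the order was Sqstm1, Hmox1, Txnrd1, Srxn1, Nfe2l2, Keap1, Gclc, Gsr, Gclm and Nqo1, and among neighbours only Keap1 and Gclc overlapped. Nfe2l2, Keap1 and Gclc held places 5, 6 and 7 in both groups. Sqstm1, Hmox1 and Srxn1 moved ahead of genes they had stood below, while Txnrd1 went from place 1 to place 3 and Gsr from place 4 to place 8.

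**Figure D5:**
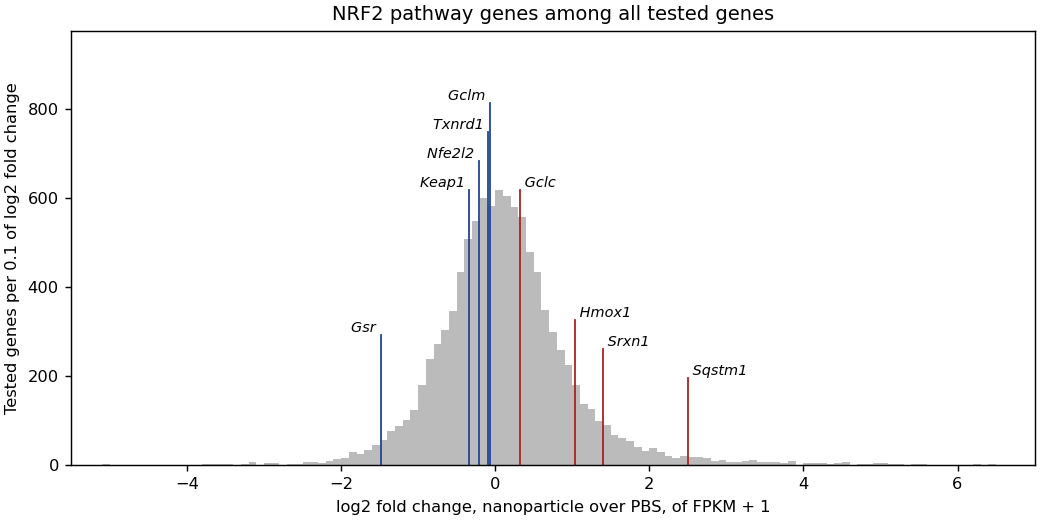
Number of tested genes per 0.1 of log2 fold change (grey), with the 9 tested members marked by lines, red above 0 and blue below, whose heights only separate the labels. Nfe2l2, Keap1, Gclm, Txnrd1 and Gclc lie in the bulk of the distribution, and Sqstm1, Srxn1, Hmox1 and Gsr lie toward its sides.

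Genes with the most similar profiles were sought for 3 members, as the smallest Euclidean distance between log2(FPKM + 1) profiles centred on their own mean over the 6 libraries. For Nfe2l2 these were Ttl, Capn2 and Vwa5a (distances 0.0481 to 0.0522), which share the higher value of nanoparticle replicate 3. For Hmox1 they were Maged1, Atp6ap1 and St14 (0.0640 to 0.0830). For Gsr they were Gphn, Ptk2b and Naa10 (0.0732 to 0.0779). With 2 groups of 3 libraries such likeness rests mainly on the size of the difference between groups.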

How the data were processed

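RNA was isolated with TRIzol and sequenced after a BGI protocol for mRNA, per the labels' protocols. The deposited table holds 1 column per library, inferred to be FPKM computed by the authors, since its header names no unit, its values are not whole and its sums differ between libraries. Per the submitters' processing notes, which give no versions, the tools include STAR and featureCounts and the builds GRCm38 and mm10. The column of PBS replicate 1 adds a suffix of unstated meaning to the library name. Rows without an Ensembl gene identifier (509, of which 498 MSTRG, holding 0.427% to 0.497% of FPKM) were left out. Low values of genes with 1 transcript did not resolve into whole fragments (25.3% to 34.6% lay within 0.05 of a whole number at the best step), so no count test was run. Coordinates come from GENCODE M21 (GRCm38).

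Testing covered genes whose mean over the 6 libraries reached 1 FPKM, on log2(FPKM + 1), a scale that understates changes of low genes, with limma 3.58.1 and an intensity trend (R 4.3.3), two-sided, treatment as the only term, and Benjamini-Hochberg adjustment over all 10229 genes at 0.05. The script was checked on simulated data. Same-numbered libraries of the 2 groups deviated together (r = 0.130, 0.115 and 0.354 for numbers 1 to 3 over tested genes), and by that measure alone the numbers were taken to pair the libraries and a block was tried. The pairing is weak evidence, since PBS replicate 2 and nanoparticle replicate 1, of different numbers, had r = 0.134. Tables and plots used Python 3.11.15, pandas 2.3.3 and matplotlib 3.10.9.

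All 10 members were named, with 15 fixed genes and, per list, up to 2 genes in each direction with the smallest p-values past the threshold at a mean of at least 5 FPKM. Akr1b3 of the lists is Akr1b1 in the table, by RefSeq synonyms. The members and lists were chosen with earlier results of these data known.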

Additional observations from a re-analysis of the deposited data

How the results depend on the processing

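Over 15 alternatives (pseudocount, filter, scaling, trend, replicate block, each library left out), none reversed a member's direction, and the 7 called members kept their call in each. Upper quartile scaling raised the members called lower from 3 to 5; the 4 called higher were 4 throughout. With the replicate block 8351 genes were called against 7896; it added Cul3 and changed no other call among the genes named. Calls of all genes ranged from 6382 (filter of 5 FPKM) to 9804 (no filter). Gsk3b also lost its call with no filter (adjusted p = 0.0563), and Gclm passed as lower under upper quartile scaling (log2 fold change -0.18, adjusted p = 0.0351). Cul3 also passed as lower under upper quartile and median-ratio scaling (adjusted p of 0.00738 and 0.0103). Leaving out single libraries moved Nfe2l2 between -0.27 and -0.18 (highest adjusted p = 0.0455). The log2 difference of the Nfe2l2 to Keap1 ratio fell from 0.12 to 0.05 without nanoparticle replicate 3.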

Other observations

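Some genes of the pathway lists that the naming rule did not take are given here, chosen after their values were seen. Nfe2l1, which encodes the NRF2 relative NRF1, stood at 36.6, 35.1 and 36.0 FPKM in PBS and at 92.2, 91.9 and 94.5 FPKM with nanoparticles, so that it went from below Nfe2l2 to above it (log2 fold change 1.35 ± 0.05 SE, limma adjusted p = 8.33e-09). Sesn2, a sestrin that promotes autophagic loss of Keap1, stood at 3.11, 3.28 and 2.89 FPKM in PBS and at 25.5, 20.2 and 20.8 FPKM with nanoparticles, while Sesn1 fell. Syvn1, an endoplasmic reticulum ubiquitin ligase that can act on NRF2, went from 11.1 to 36.7 FPKM by means.

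Gstt1, a glutathione transferase gene next to Gstt3, stood at 0.98, 0.82 and 0.98 FPKM in PBS and at 21.5, 20.6 and 15.2 FPKM with nanoparticles. Gstm1 went from a mean of 3.55 to 13.8 FPKM, and the carbonyl reductase genes Cbr1 and Cbr3 from 15.1 to 29.3 and from 5.98 to 16.8 FPKM. Osgin1, a known NRF2 target, went the other way, from 4.49 to 2.96 FPKM. Gstt1 was under 1 FPKM in every PBS library and met the filter only through its nanoparticle values, so no p-value is given for it. Gstm1, Cbr1, Cbr3 and Osgin1 passed (limma adjusted p of 1.17e-07 to 0.00121). As these genes were chosen by their values, passing adds no support.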
